A study of Homo sapiens with 9 samples.

Results

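The 10 genes described here encode proteins that recognise viral or misplaced nucleic acid in the cytosol, together with the adaptor and kinases that act directly behind them. They were taken by symbol from a deposited table of 34643 genes, and all 10 were found. They are the RNA helicases DDX58, IFIH1 and DHX58, the helicase-like cofactors DDX60 and DDX60L, the RNA-activated kinase EIF2AK2, the nucleic acid sensor ZBP1, the adaptor MAVS, and the kinases TBK1 and IKBKE. The choice was by name and used no measured value, although it was made with earlier results of these data known.

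DDX58 (RIG-I) and IFIH1 (MDA5) bind foreign double-stranded RNA and pass the signal to MAVS on the mitochondrial surface. MAVS in turn engages TBK1 and IKBKE, which phosphorylate the transcription factors IRF3 and IRF7 and so switch on interferon genes. Many of the sensors are themselves interferon-stimulated genes, and in macrophages lipopolysaccharide (LPS) reaches the same kinases through TLR4 and its adaptor TICAM1.

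RNA was measured by poly(A)-enriched sequencing in THP-1, a human monocytic leukaemia line that the phorbol ester PMA drives towards a macrophage state. Every culture, controls included, had received 500 nM PMA for 4 h and then rested for 24 h, per the labels. The 3 controls (libraries 1 to 3) had no further treatment, 3 libraries (4 to 6) came from cells given LPS at 1 µg/mL, and 3 libraries (7 to 9) from cells given the same LPS with PD at 10 µM. The series title names panaxadiol, a ginseng-derived triterpenoid, and the labels write PD. No group received PD alone, and THP-1 is a single leukaemia line rather than primary macrophages. The libraries are numbered 1 to 9 across the groups. Nothing says that they came from separate cultures, so a p-value here weighs a difference against a spread that may be technical only.

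Levels are the deposited FPKM values, which scale fragments by gene length and by the library's total. A comparison of levels between genes thus rests on the gene lengths used. Fragment depths recovered from the table ran from 15641354 to 17875239 per library, with no gap between the groups. Monocyte and macrophage markers had summed levels of 538 to 566 FPKM in control, 827 to 837 with LPS and 843 to 863 with LPS plus PD, while 2 of the 10, CD68 and CD163, stayed below 1 FPKM in every library. Myeloid progenitor markers, all 6 of them present, summed to 5583 to 6124 FPKM in control, 1383 to 1497 with LPS and 2141 to 2163 with LPS plus PD. Of the epithelial markers 7 of 8 were below 1 FPKM everywhere, and the list summed to 2.85 to 2.98, 5.20 to 6.93 and 2.73 to 3.10 FPKM in the same order. Lymphocyte markers, 6 of 8 matched and 4 of these below 1 FPKM, summed to 4.59 to 5.32, 3.02 to 3.30 and 3.75 to 4.26 FPKM. Fibroblast and endothelial markers, 7 of 8 matched and all but PECAM1 below 1 FPKM, summed to 34.5 to 35.6, 53.2 to 55.4 and 47.1 to 47.8 FPKM. The monocyte and macrophage sum was thus higher with LPS and no lower with PD added, and the progenitor sum was lower with LPS and partly higher again with PD. The first of these sums hides markers that moved the other way. LYZ (169 to 158 FPKM) and CD33 (14.8 to 11.4 FPKM) had lower means with LPS than in control, and the others higher ones. That sum also hides a split between LPS alone and LPS plus PD. LYZ went from a mean of 158 to 301 FPKM, and CD33 and ITGAM were also higher. The other markers had lower means with PD, among them CD14 (35.1 to 10.1 FPKM), CSF1R (78.6 to 41.3 FPKM), SPI1 (266 to 219 FPKM) and FCGR1A (49.7 to 30.8 FPKM). The part of these shifts in the results below was not tested. In RNA from whole cultures, fewer cells of a type and less RNA per cell cannot be told apart.

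The sequences before the gene starts are shown because interferon-stimulated genes are classically driven through a short element, the ISRE, which pairs of interferon regulatory factors or the ISGF3 complex bind. Windows from 250 bases before to 50 bases after the RefSeq gene start (GRCh38.p14) were found for 8 of the 10 genes, DDX58 being listed there as RIGI. DHX58 and ZBP1 were not matched. The ISRE was searched as GAAANNGAA on both strands, a run present in 2847 of 35116 RefSeq windows of the same 300 bases (8.11%). It was found in 4 of the 8 genes, IFIH1, DDX60, DDX60L and EIF2AK2. A shorter run for a single IRF site, AANNGAAA, is present in 22.8% of windows and was found in those 4 and in DDX58 and IKBKE; each ISRE match overlaps a match of it. These letters and the NF-kB run given below were chosen after the windows had been looked at. The ISRE and NF-kB runs leave off the last base of the usual elements. The NF-kB run also fixes bases that vary in the usual element, so a window without it can still hold another form.

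The printed windows are chr9:32526197-32526446 on the minus strand for DDX58, chr2:162318685-162318934 on the minus strand for IFIH1, chr4:168318753-168319002 on the minus strand for DDX60 and chr4:168480493-168480742 on the minus strand for DDX60L. The RefSeq start of DDX60L lies inside the gene as the deposited table places it (chr4:168356735-168537786), so its window falls within that measured gene. EIF2AK2 is shown as chr2:37156971-37157000 on the minus strand, which spans its start. IKBKE is chr1:206470226-206470475 and MAVS is chr20:3846584-3846833, both on the plus strand. The RefSeq starts of DDX58, IFIH1, DDX60, EIF2AK2 and MAVS also lie inside the deposited genes, but nearer to the deposited starts. Parts of their windows, and all of the EIF2AK2 stretch shown, thus fall within the measured genes. Among the printed genes only IKBKE has the same start in both. Each window is written 5′ to 3′ along its own gene. Capitals mark GAAANNGAA on either strand in IFIH1, DDX60, DDX60L and EIF2AK2, and AANNGAAA on either strand in DDX58 and IKBKE; the MAVS window holds neither.
DDX58: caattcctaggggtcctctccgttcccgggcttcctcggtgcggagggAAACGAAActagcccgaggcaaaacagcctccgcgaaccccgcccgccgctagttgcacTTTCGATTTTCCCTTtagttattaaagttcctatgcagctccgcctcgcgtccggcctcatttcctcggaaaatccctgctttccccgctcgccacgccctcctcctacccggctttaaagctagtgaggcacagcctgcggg
IFIH1: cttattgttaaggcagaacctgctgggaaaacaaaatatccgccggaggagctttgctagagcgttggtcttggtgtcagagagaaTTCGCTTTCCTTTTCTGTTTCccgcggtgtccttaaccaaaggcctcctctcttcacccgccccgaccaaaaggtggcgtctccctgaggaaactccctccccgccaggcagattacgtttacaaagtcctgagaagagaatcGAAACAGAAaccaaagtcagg
DDX60: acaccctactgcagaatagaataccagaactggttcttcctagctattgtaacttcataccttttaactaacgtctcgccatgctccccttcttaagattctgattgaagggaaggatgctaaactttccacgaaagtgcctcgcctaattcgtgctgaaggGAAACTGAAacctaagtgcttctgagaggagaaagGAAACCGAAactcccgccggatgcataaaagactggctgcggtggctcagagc
DDX60L: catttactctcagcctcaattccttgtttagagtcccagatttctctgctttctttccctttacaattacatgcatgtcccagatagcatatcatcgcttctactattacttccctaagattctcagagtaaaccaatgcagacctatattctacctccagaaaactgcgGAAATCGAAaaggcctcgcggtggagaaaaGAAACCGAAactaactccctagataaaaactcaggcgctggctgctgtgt
EIF2AK2: gcggagtccaagggGAAAACGAAactgaga
IKBKE: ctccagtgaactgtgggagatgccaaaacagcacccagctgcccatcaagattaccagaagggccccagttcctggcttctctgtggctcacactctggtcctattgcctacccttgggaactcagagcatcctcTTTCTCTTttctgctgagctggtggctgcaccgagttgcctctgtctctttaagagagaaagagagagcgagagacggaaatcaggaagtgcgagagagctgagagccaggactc
MAVS: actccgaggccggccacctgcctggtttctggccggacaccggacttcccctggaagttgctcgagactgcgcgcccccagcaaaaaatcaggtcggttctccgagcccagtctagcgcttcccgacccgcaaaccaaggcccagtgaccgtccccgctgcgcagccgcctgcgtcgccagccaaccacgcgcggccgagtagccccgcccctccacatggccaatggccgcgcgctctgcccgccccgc

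IFIH1 held 4 ISRE matches, of which 3 overlapped on the opposite strand, 164, 158 and 152 bases before the start, and a further match lay 21 bases before it. DDX60 held matches 88 and 53 bases before its start, and its neighbour and paralogue DDX60L held matches 80 and 50 bases before its own. The EIF2AK2 match ran from 6 bases before the start to the gene's base number 3. DDX58 held 3 of the shorter IRF runs, 202, 143 and 136 bases before the start, and IKBKE held 1 of them, 115 bases before the start. An NF-kB core run, GGGANNTTC on either strand, is present in 4.18% of windows. It was found in DDX58 and IFIH1, in both genes 75 bases before the start, and in DDX60 47 bases before the start, where it overlaps an ISRE match. MAVS and TBK1 held none of the 3 runs. These are matches of letters only.

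**Figure D1:**
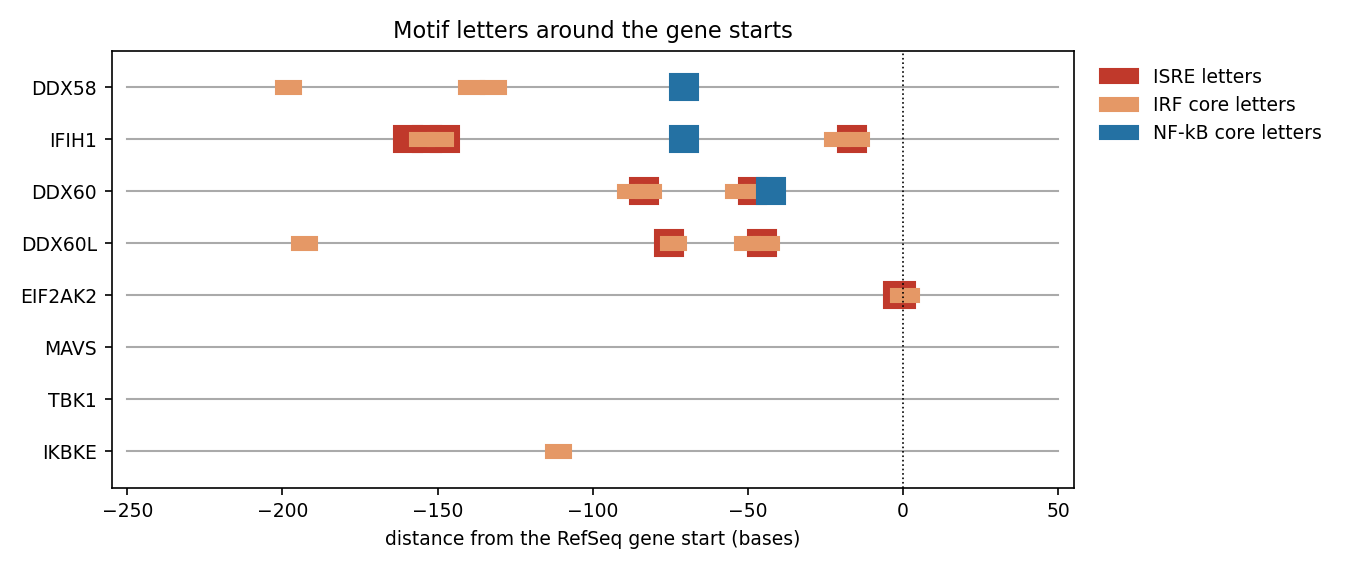
Positions of the 3 motif runs in 8 sensing genes, plotted as distance in bases from the RefSeq gene start (dotted line). Red bars are GAAANNGAA, orange bars AANNGAAA and blue bars, drawn over the others, GGGANNTTC. The ISRE run appears in 4 genes, the IRF core also in DDX58 and IKBKE, and the MAVS and TBK1 lines are empty.

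LPS raised nearly the whole set and lowered its adaptor. Of the 9 members that passed the filter of at least 1 FPKM in at least 3 libraries, 8 were called higher and MAVS was called lower with LPS than in control, against a background of 26.4% of 13692 tested genes called higher and 39.7% called lower. A call is a Benjamini-Hochberg adjusted p below 0.05 over all tested genes in limma on log2(FPKM + 1). The median difference was 2.52 over the 9 members and -0.08 over all tested genes. With PD added to LPS, 7 of the 9 were called lower than with LPS alone and none higher, where 13.0% of genes were called lower and 23.8% higher. The medians were then -0.76 over the members and 0.07 over all genes. Against control, cells given LPS plus PD had 7 members called higher and 1 lower, beside 26.0% and 28.7% of all genes, so the sensors lowered with PD remained above control. Under median-of-ratios scaling between libraries all of these member counts stayed as they were, while the shares of all genes became 35.2% higher and 30.1% lower for LPS against control and 14.1% higher and 18.9% lower for PD added to LPS. The comparisons share their groups, so these counts are not independent of each other. All 9 were above 1 FPKM in every control library, so none passed the filter through the LPS groups alone. The call of TBK1 with LPS was lost when any of 4 single libraries was left out, as given with that gene, which leaves 7 called higher.

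**Figure D2:**
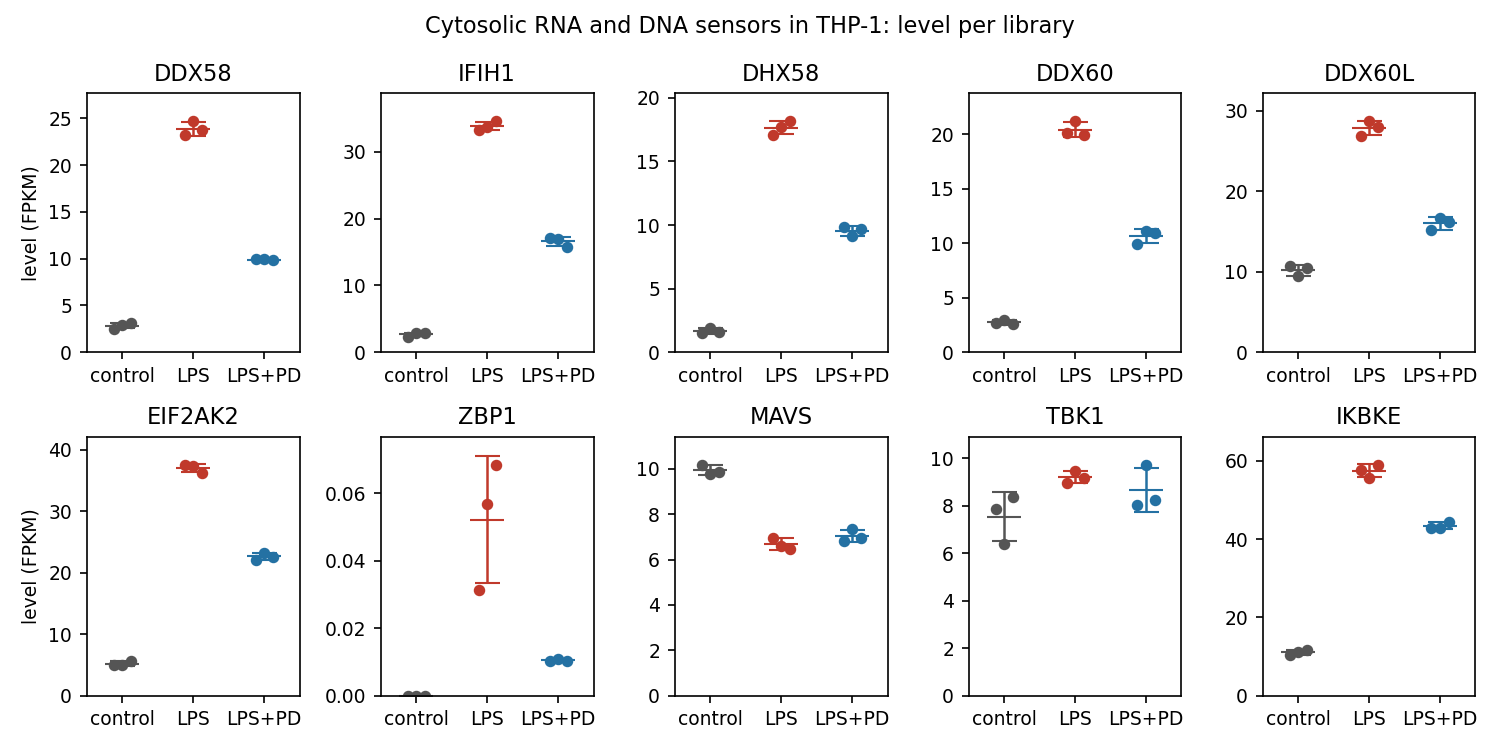
Level in FPKM of each of the 10 genes in every library, with a separate linear axis from 0 for each gene; points are libraries, and bars give the group mean and SD (n = 3). DDX58, IFIH1, DHX58, DDX60, DDX60L, EIF2AK2 and IKBKE were lowest in control, highest with LPS and between these with LPS plus PD. MAVS was highest in control, and TBK1 varied more within control and within LPS plus PD than within LPS.

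The RNA helicases had the largest differences with LPS among the members. DDX58 (ENSG00000107201; chr9:32455705-32526324, minus strand, GRCh38), the sensor of short RNA with a 5′ triphosphate, measured 2.52, 2.89 and 3.11 FPKM in the controls, 23.2, 24.7 and 23.8 FPKM with LPS and 9.95, 9.95 and 9.82 FPKM with LPS plus PD. The 3 groups did not overlap, and the LPS plus PD libraries lay closely together. Its means were 2.84 ± 0.302, 23.9 ± 0.764 and 9.91 ± 0.0713 FPKM (SD, n = 3), resting on 193 to 218, 1681 to 1783 and 735 to 774 fragments per library. The level with LPS was 8.41-fold that of control, a difference of 2.70 on the log2(FPKM + 1) scale (SE 0.06, limma adjusted p = 2.37e-10). With PD it fell by 1.19 from the LPS level (95% interval of the difference -1.32 to -1.06, limma adjusted p = 7.58e-07) to 41.4% of it, which was still 3.49-fold the control level.

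IFIH1 (ENSG00000115267; chr2:162267079-162318703, minus strand), which senses long double-stranded RNA, had the widest LPS difference among the tested members. It measured 2.33, 2.80 and 2.83 FPKM in control, 33.3, 33.7 and 34.6 FPKM with LPS and 17.0, 17.0 and 15.8 FPKM with LPS plus PD. Again no library of a group reached those of another. The means of 2.65 ± 0.278 and 33.9 ± 0.656 FPKM differed 12.8-fold, or by 3.26 on the log2(FPKM + 1) scale (limma adjusted p = 7.86e-11). With PD the mean of 16.6 ± 0.690 FPKM was 49.0% of the LPS level (log2 difference -0.99, limma adjusted p = 2.26e-06).

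DHX58 (LGP2; ENSG00000108771; chr17:42101404-42112733, minus strand) lacks the signalling domains of the other helicases and tunes them, promoting MDA5 signalling. It was the lowest of the 3 helicases in every group, at 1.49, 1.88 and 1.62 FPKM in control, 17.1, 17.7 and 18.2 FPKM with LPS and 9.81, 9.11 and 9.65 FPKM with LPS plus PD. The groups were fully separated, the control values resting on 100 to 113 fragments per library. LPS brought a 10.6-fold higher level (log2 difference 2.81, limma adjusted p = 2.24e-10), and PD lowered it to 53.9% of the LPS level (log2 difference -0.83, limma adjusted p = 7.15e-06).

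DDX60 and DDX60L are paralogous neighbours on chromosome 4; DDX60 has been described as a cofactor of the RNA helicases. DDX60 (ENSG00000137628; chr4:168216293-168318807, minus strand) measured 2.70, 2.98 and 2.54 FPKM in control, 20.1, 21.2 and 19.9 FPKM with LPS and 9.93, 11.1 and 11.0 FPKM with LPS plus PD. DDX60L (ENSG00000181381; chr4:168356735-168537786, minus strand) measured 10.7, 9.40 and 10.4 FPKM, then 26.9, 28.7 and 28.0 FPKM, then 15.1, 16.6 and 16.2 FPKM in the same order. Both genes kept their 3 groups apart, but they started from different levels. LPS raised DDX60 7.45-fold (log2 difference 2.52, limma adjusted p = 4.29e-10) and DDX60L 2.74-fold (log2 difference 1.37, limma adjusted p = 1.48e-08). With PD they stood at 52.2% and 57.4% of their LPS levels (log2 differences -0.88 and -0.76, limma adjusted p = 4.85e-06 and 6.44e-06).

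Within a library, the DDX60L level was 3.73 ± 0.507 times the DDX60 level in control, 1.36 ± 0.0363 times with LPS (SD, n = 3) and 1.48 to 1.52 times with LPS plus PD. The control ratios, 3.15 to 4.09, lay above all others, and the ratios with LPS, 1.33 to 1.40, lay below those with PD. Each of the 3 differences had a two-sided exact permutation p of 0.1, the smallest that 3 against 3 libraries allow, and 0.1 after adjustment over 9 ratio tests. Reads shared by the paralogues may have been assigned to either, since the handling of such reads is not given in the sources used here.

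Of the effectors, EIF2AK2 (PKR; ENSG00000055332; chr2:37099210-37157065, minus strand), which halts translation by phosphorylating eIF2α when it binds double-stranded RNA, was abundant with LPS. It measured 4.96, 4.92 and 5.65 FPKM in control, 37.6, 37.3 and 36.2 FPKM with LPS and 22.1, 23.3 and 22.6 FPKM with LPS plus PD. No groups overlapped and the spread within a group was small, with SDs of 0.409, 0.713 and 0.571 FPKM. LPS raised it 7.16-fold (log2 difference 2.63, limma adjusted p = 9.69e-11), and with PD it stood at 61.1% of the LPS level (log2 difference -0.69, limma adjusted p = 6.77e-06). GPATCH11, which overlaps it on the opposite strand, moved the other way, at means of 10.7, 5.26 and 6.66 FPKM; whether strand was used in counting is not given, so reads from the overlap cannot be told apart.

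ZBP1 (ENSG00000124256; chr20:57603846-57620576, minus strand), the sensor of left-handed nucleic acid that can start necroptosis, was close to undetected. No fragment was found in the 3 controls, 3, 5 and 6 fragments were found in the LPS libraries and 1 in each library given LPS plus PD. These correspond to 0.0314, 0.0567 and 0.0684 FPKM with LPS and to 0.0104, 0.0109 and 0.0104 FPKM with PD. The LPS libraries had the most, but ZBP1 was below the filter, and at so few fragments no fold is given. A count of 0 allows up to 3 fragments per library, a limit that covers counting error only.

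The adaptor went the other way. MAVS (ENSG00000088888; chr20:3846799-3876123, plus strand), the hub on which both RNA helicases converge, measured 10.2, 9.79 and 9.88 FPKM in control, 6.96, 6.61 and 6.47 FPKM with LPS and 6.83, 7.34 and 6.95 FPKM with LPS plus PD. All controls lay above all treated libraries, while the LPS libraries overlapped with those given PD. The mean of 6.68 ± 0.249 FPKM with LPS was 67.1% of the 9.95 ± 0.203 FPKM in control (SD, n = 3; log2 difference -0.51, SE 0.04, limma adjusted p = 3.32e-06). PD did not move it detectably from the LPS level, with a log2 difference of 0.07 (95% interval -0.03 to 0.16, limma adjusted p = 0.249), whose sign turned to -0.01 under median-of-ratios scaling between libraries. Against control the level with LPS plus PD fell by 0.45 (limma adjusted p = 1.47e-05).

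The DDX58 level was 0.286 ± 0.0350 times the MAVS level in control, 3.58 ± 0.219 times with LPS and 1.41 ± 0.0505 times with LPS plus PD (SD, n = 3). In FPKM the transcript of the sensor was thus below that of its adaptor in every control library and above it in every treated library. That order rests on the scaling by gene length. In the LPS plus PD libraries MAVS had more fragments (1437, 1466 and 1458) than DDX58 (774, 735 and 762). The differences in the log2 ratio were 3.65 for LPS against control and -1.35 for PD added to LPS, each at the smallest possible two-sided exact permutation p of 0.1.

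The kinases behind MAVS differed from each other. IKBKE (IKKε; ENSG00000263528; chr1:206470476-206496889, plus strand), the inducible kinase of the pair, measured 10.4, 11.1 and 11.7 FPKM in control, 57.6, 55.6 and 59.0 FPKM with LPS and 42.7, 42.9 and 44.4 FPKM with LPS plus PD. The groups were apart from one another. LPS raised it 5.18-fold (log2 difference 2.27, limma adjusted p = 1.26e-10). With PD it kept 75.5% of the LPS level, a log2 difference of -0.40 (95% interval -0.49 to -0.30, limma adjusted p = 0.0001), the smallest drop with PD among the 7 members called. C1orf147, annotated antisense to it, had means of 0.976, 4.15 and 3.44 FPKM, and reads from the overlap cannot be told apart.

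TBK1 (ENSG00000183735; chr12:64451880-64502108, plus strand), the constitutive kinase, measured 7.86, 6.38 and 8.36 FPKM in control, 8.97, 9.46 and 9.15 FPKM with LPS and 8.01, 9.72 and 8.25 FPKM with LPS plus PD. The LPS libraries lay just above the highest control, whereas the libraries given PD overlapped with both other groups. LPS was called higher than control by 0.26 on the log2 scale (SE 0.09, limma adjusted p = 0.0298). That call rests on single libraries: without control replicate 2 the difference was 0.16 (limma adjusted p = 0.0873), and without LPS replicates 4, 5 or 6 the adjusted p was 0.0516, 0.0792 and 0.0625. It was also lost with no filter on low values (limma adjusted p = 0.0728). PD added to LPS gave a difference of -0.08 (95% interval -0.29 to 0.13, limma adjusted p = 0.529), and LPS plus PD against control gave 0.18 (95% interval -0.03 to 0.39, limma adjusted p = 0.124).

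Within a library the IKBKE level was 1.49 ± 0.225 times that of TBK1 in control, 6.25 ± 0.318 times with LPS and 5.04 ± 0.547 times with LPS plus PD (SD, n = 3). The ranges of 1.32 to 1.75, 5.88 to 6.44 and 4.41 to 5.39 did not overlap. The log2 ratio rose by 2.08 with LPS and fell by 0.31 when PD was added, each with a two-sided exact permutation p of 0.1, the smallest possible here.

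**Figure D3:**
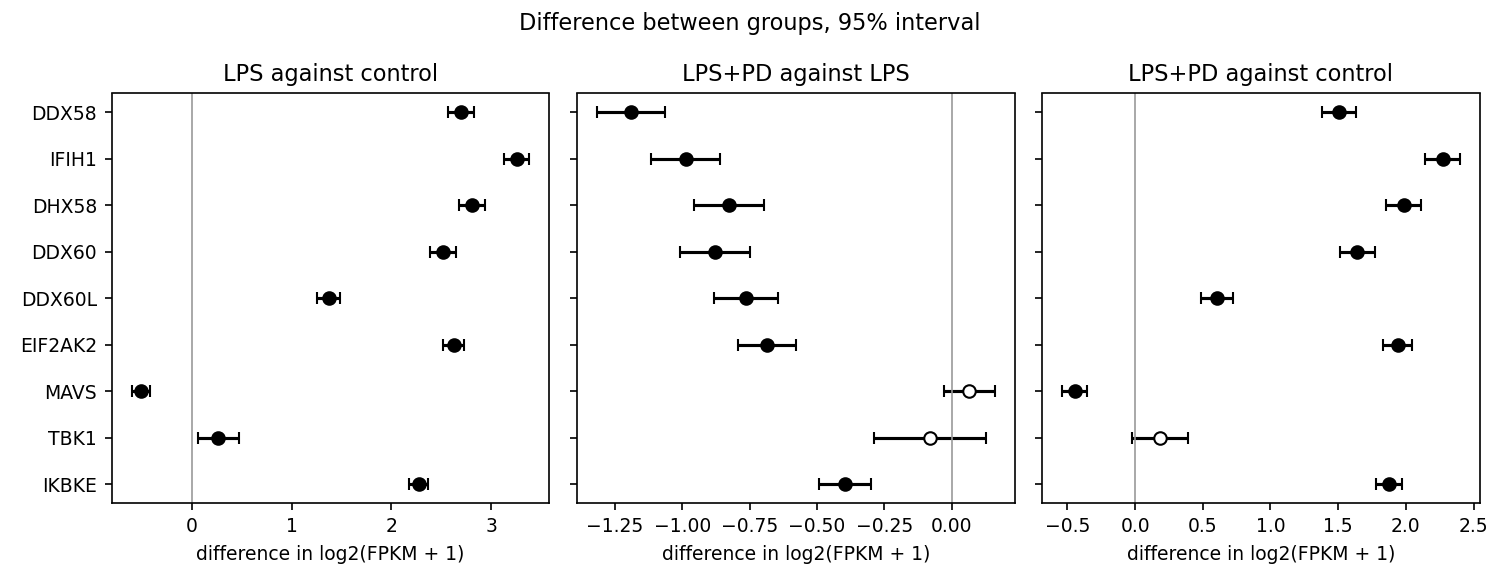
Difference between group means on the log2(FPKM + 1) scale for the 9 tested genes in 3 comparisons, each panel with its own horizontal axis; points are limma estimates, bars 95% intervals, and filled points were called. With LPS, 8 genes lie right of 0 and MAVS left of it, and with PD added 7 genes lie left of 0 while the open points of MAVS and TBK1 span it.

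The order of the transcripts by FPKM changed between groups. In control IKBKE, DDX60L and MAVS stood highest, with neighbours that overlapped, followed by TBK1 and EIF2AK2. DDX58, DDX60 and IFIH1 overlapped with each other below them, and DHX58 and ZBP1 came last. With LPS the order was IKBKE, EIF2AK2, IFIH1, DDX60L, DDX58, DDX60, DHX58, TBK1, MAVS and ZBP1, and no neighbours overlapped. The adaptor thus passed from among the highest of the set to the lowest above ZBP1. Such an order rests on the scaling by gene length. In the LPS libraries EIF2AK2 had more fragments (7139, 6551 and 6320) than IKBKE (3859, 3441 and 3626). With LPS plus PD the order was IKBKE, EIF2AK2, IFIH1, DDX60L, DDX60, DDX58, DHX58, TBK1, MAVS and ZBP1, where IFIH1 overlapped with DDX60L, DDX60 with DDX58, and DHX58 with TBK1.

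Other genes of these pathways were taken from 5 lists of 105 genes, of which 98 were tested. Some genes sit in several lists and are counted once in the totals over all lists. The shares called are to be read against the 26.4% higher and 39.7% lower among all tested genes with LPS, and the 23.8% higher and 13.0% lower with PD added to LPS. With LPS, 45 of the 98 (45.9%) were called higher and 28 (28.6%) lower, with a median log2 difference of 0.10. PD added to LPS gave 24 higher (24.5%), which is near the share of all genes, and 27 lower (27.6%), with a median of 0.01. Median-of-ratios scaling moved the median of all genes by 0.11 for LPS against control. Under it 55 pathway genes (56.1%) were higher and 18 (18.4%) lower with LPS, beside 35.2% and 30.1% of all genes. With PD 12 (12.2%) were higher, near the 14.1% of all genes, and 37 (37.8%) were lower, beside 18.9%. Without that scaling, LPS plus PD against control gave 45 higher (45.9%) and 26 lower (26.5%), beside 26.0% and 28.7% of all genes.

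Among 25 regulators of the RNA sensors, 12 (48.0%) were higher and 7 (28.0%) lower with LPS, and 6 (24.0%) were higher and 7 (28.0%) lower with PD added, the share higher with PD being near that of all genes. ADAR, which edits double-stranded RNA and so hides self RNA from MDA5 and PKR, rose from 50.7 ± 2.56 to 136 ± 2.14 FPKM with LPS (SD, n = 3; limma adjusted p = 1.09e-09) and was 99.6 ± 1.94 FPKM with PD. TRIM25, a ubiquitin ligase that activates RIG-I, went from 28.9 to 56.1 FPKM with LPS and was 39.3 FPKM with PD (limma adjusted p = 5.12e-08 and 2.27e-05). ZC3HAV1, the zinc-finger antiviral protein, was 13.2, 21.2 and 14.0 FPKM, and its level with LPS plus PD did not differ detectably from control (log2 difference 0.08, limma adjusted p = 0.119). The 7 called lower with LPS were NLRX1, LRRFIP1, RNF125, TKFC, PCBP2, TRIM4 and ZCCHC3. LRRFIP1 was 18.6 FPKM in control, 13.6 FPKM with LPS and 15.7 FPKM with LPS plus PD. NLRX1, a mitochondrial protein reported to restrain MAVS, fell from 20.2 ± 1.13 to 8.71 ± 0.171 FPKM with LPS (limma adjusted p = 2.37e-08) and was 12.8 ± 0.513 FPKM with PD (limma adjusted p = 3.28e-05). RNF125, a ubiquitin ligase that marks RIG-I for degradation, was 2.08, 0.641 and 1.29 FPKM and was called in both comparisons. CYLD, a deubiquitinase that also restrains RIG-I, moved the other way at 2.66, 8.10 and 6.53 FPKM.

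Of 23 tested genes between MAVS and the interferon regulatory factors, 11 (47.8%) were higher and 6 (26.1%) lower with LPS, and 3 (13.0%) were higher and 7 (30.4%) lower with PD added. IRF7, the interferon-inducible factor, rose from 5.67 ± 0.342 to 71.1 ± 2.70 FPKM with LPS (limma adjusted p = 2.03e-11) and was 35.3 ± 1.30 FPKM with PD (limma adjusted p = 7.67e-07). IRF3, its constitutive relative, was 30.8 ± 0.409, 26.0 ± 0.849 and 27.5 ± 2.14 FPKM; it was called lower with LPS (log2 difference -0.24, limma adjusted p = 0.00237) and was not called with PD (limma adjusted p = 0.267). IFIT3, which bridges MAVS and TBK1, had 1.35, 77.6 and 23.3 FPKM. OPTN and TANK, which hold TBK1 in signalling complexes, stood at 2.73, 15.0 and 11.2 FPKM and at 6.04, 13.1 and 9.64 FPKM, and both were called in each of the first 2 comparisons. The interferon genes were scarce. IFNB1 had no fragment in the controls, 3, 1 and 2 fragments with LPS and 0, 0 and 2 with LPS plus PD, and IFNL1 had none, then 4, 5 and 11, then 1, 3 and 1. Both were below the filter, and their differences were not tested.

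Of 26 tested genes of DNA sensing, 9 (34.6%) were higher and 11 (42.3%) lower with LPS, the latter near the share of all genes. With PD added, 13 (50%) were higher and 6 (23.1%) lower. AIM2 reached 1 FPKM only with LPS and NLRC3, named after its values were seen, only in control; each passed the filter through that group alone, and their calls within these counts follow from that. Some of the 13 higher with PD differed little, such as XRCC5 and XRCC6 (log2 differences 0.09 and 0.11), beside a median of 0.07 over all genes. Over all lists, median-of-ratios scaling took the genes called higher with PD from 24 to 12, and the share of all genes from 23.8% to 14.1%. The DNA sensor IFI16 went from 4.33 ± 0.209 to 41.5 ± 0.919 FPKM with LPS (limma adjusted p = 2.90e-11) and was 16.4 ± 0.818 FPKM with PD (limma adjusted p = 1.92e-07). AIM2, the inflammasome receptor, was listed at means of 0.0504, 2.00 and 0.383 FPKM. CGAS, the enzyme that makes the second messenger cGAMP, was 17.3 ± 0.354, 24.5 ± 0.862 and 21.5 ± 1.19 FPKM (limma adjusted p = 7.68e-06 for LPS and 0.00978 for PD). STING1, the receptor of cGAMP and thus the counterpart of MAVS in DNA sensing, fell from 124 ± 2.11 to 39.4 ± 3.89 FPKM with LPS (log2 difference -1.63, limma adjusted p = 8.55e-09) and was 52.2 ± 0.798 FPKM with PD (log2 difference 0.40, limma adjusted p = 0.000581). RNASEH2B, a subunit of the nuclease that removes ribonucleotides from DNA, and MNDA, a myeloid relative of IFI16, fell with LPS as well, from 9.27 to 2.68 FPKM and from 44.5 to 15.8 FPKM. With PD they were at 3.87 and 19.1 FPKM, both called higher than LPS alone.

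Behind EIF2AK2, 10 of 18 genes of the eIF2 branch (55.6%) were higher and 2 (11.1%) lower with LPS, and 2 (11.1%) were higher and 5 (27.8%) lower with PD added. PPP1R15A (GADD34), which directs the phosphatase that reverses the block on translation, rose from 8.50 ± 0.590 to 35.8 ± 3.19 FPKM with LPS (limma adjusted p = 1.22e-08) and was 21.3 ± 1.37 FPKM with PD (limma adjusted p = 6.53e-05). DNAJC3, an inhibitor of PKR, was 11.5, 16.5 and 13.5 FPKM. The other eIF2 kinases EIF2AK1 and EIF2AK4 went down with LPS, from 25.2 to 19.0 FPKM and from 6.45 to 5.01 FPKM. Of the 10 genes around ZBP1, 5 (50%) were higher and 2 (20%) lower with LPS, and 1 (10%) was higher and 5 (50%) lower with PD added. ADAR, RIPK1, CASP8 and FADD among them also sit in lists above, so their calls are counted there too. With PD added, FADD was the 1 called higher, and ADAR, RIPK1 and CASP8 were among the 5 called lower. RIPK3, the necroptosis kinase that ZBP1 binds, was 5.73, 4.21 and 4.35 FPKM, lower with LPS and not called with PD (limma adjusted p = 0.704). TICAM1 (TRIF), the TLR adaptor, was 6.10, 12.8 and 13.0 FPKM, higher with LPS and likewise not called with PD (limma adjusted p = 0.786). CFLAR, an inhibitor of caspase-8, had 4.93, 9.64 and 6.94 FPKM and was called in both comparisons.

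**Figure D4:**
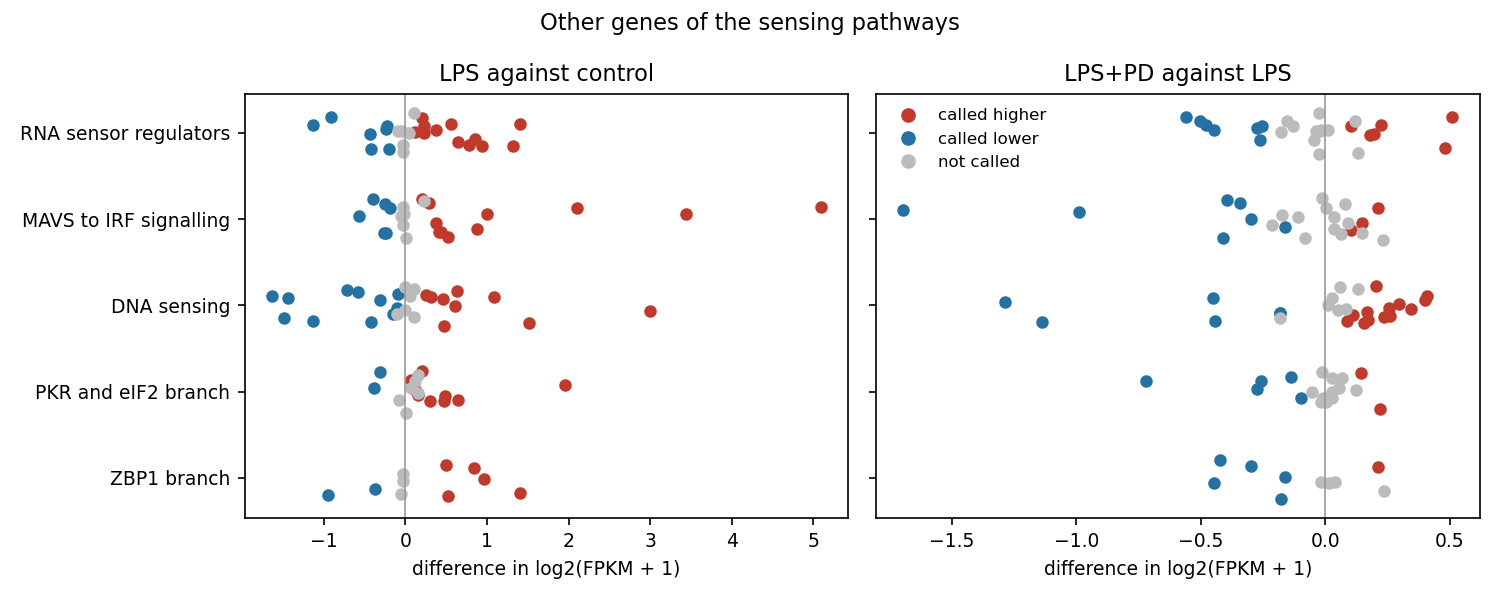
Difference in log2(FPKM + 1) of the tested genes in 5 pathway lists, for LPS against control (left) and LPS plus PD against LPS (right); each point is a gene, jittered vertically, coloured red where called higher, blue where called lower and grey where not called. Each list holds genes on both sides of 0. ADAR, RIPK1, CASP8 and FADD sit in several lists and are drawn in each. With each gene counted once, 45 were higher and 28 lower on the left, and 24 higher and 27 lower on the right.

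The genes whose levels followed the sensors most closely were ranked by Pearson's r of log2(FPKM + 1) over the 9 libraries, among 7653 genes with a mean of at least 5 FPKM in a group. These values describe libraries that fall into 3 treatment groups, and many genes that differ between the groups reach a high r. For EIF2AK2 the closest were MX1, OAS1 and PRR16, each at 0.999, the first of these at 0.530, 67.0 and 24.8 FPKM. For DDX58 they were CHMP5, PIM1 and RHBDF2, also at 0.999, where PIM1 measured 3.79, 36.2 and 14.4 FPKM. MAVS was followed by FCHO2, PTK2B and DENND4A at 0.996, 0.995 and 0.995, with PTK2B at 52.9, 34.2 and 36.5 FPKM. TBK1 had no match as close, its nearest being LENG1, ICE1 and LARP4 at 0.936, 0.922 and 0.922.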

How the data were processed

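RNA from 9 THP-1 libraries in 3 groups of 3 was measured, with groups taken from the sample titles. The authors deposited 1 table of FPKM values for 34643 Ensembl genes, and the submitters' processing notes give the build GRCh38 and the tools HISAT2, StringTie, FastQC and bcl2fastq, with no versions. The treatment of strand and of multiply mapping reads, the exposure times and the vehicle are nowhere given in the sources used here. The A549 cells named in the design were not analysed here. Because FPKM depend on each library's total, a few abundant genes can shift all other values, which is why other scalings were tried. Of the gene IDs, 34579 (99.8%) are in GENCODE v29. FPKM multiplied by total exon length gave whole fragments within 0.05 for nearly all values, and from these the depths were taken; IFIH1 did not come out whole, so its fragments are not given. Limits from fragment counts cover counting error only, since no molecular identifiers separate PCR copies from independent molecules.

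The groups' log2(FPKM + 1) values were compared in limma 3.58.1 (R 4.3.3); this scale understates changes of low genes. The model held 3 group means with an intensity trend, over 13692 genes with at least 1 FPKM in at least 3 of 9 libraries, and p was adjusted by Benjamini-Hochberg over all of them. The model was also run on simulated fragments with changes in the LPS group only and a small fixed spread. That run cannot show how the model behaves on the spread of these data. Ratios of levels within a library were compared by exact permutation. Fold values and percentages of a level are ratios of mean FPKM.

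The members and the pathway and marker lists were chosen with earlier results of these data known. The rule for other genes took all members, up to 3 genes per list and direction with the smallest adjusted p in the first 2 comparisons, 7 genes by name, and the 3 genes closest to each of 4 members, and not all of these are printed. Alternatives covered the pseudocount (0.1 and 0.5), the filter, the scaling, the libraries fitted, the trend, array weights, limma voom on recovered fragments, the threshold and each library left out. Promoter sequences are from RefSeq (GRCh38.p14).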

Additional observations from a re-analysis of the deposited data

How the results depend on the processing

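No paired analysis was possible because the replicate numbers run from 1 to 9 and no group shares a number with another. Over 20 alternatives each, 174 of 180 member values for LPS against control kept their direction and their side of the threshold, and the other 6 were all TBK1, which lost its call. For LPS plus PD against LPS 179 of 180 held, the exception being MAVS, whose difference of 0.07 turned to -0.0082 under median-of-ratios scaling (adjusted p = 0.894, with a range of 0.151 to 0.894 over its alternatives). All 180 values held for LPS plus PD against control. Alternatives of the filter, the trend, the groups fitted and the threshold, and leaving out a library outside the comparison, cannot change the difference itself. In those only the p-value or the call could move, so the tallies are no measure of direction there. With limma and no filter on low values ZBP1 was called higher with LPS (adjusted p = 0.0182), on 3 to 6 fragments per LPS library.

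Median-of-ratios scaling moved pathway genes called lower with LPS from 28 to 18, pathway genes called higher with PD from 24 to 12, and all genes called higher with PD from 3259 to 1929. The split of all genes turned in both comparisons, from 3621 higher and 5438 lower to 4814 and 4122 for LPS against control, and from 3259 higher and 1778 lower to 1929 and 2582 for PD added to LPS. At an adjusted p below 0.01, 1975 genes were called higher with PD. With a filter at 5 FPKM, genes called lower numbered 3295 rather than 5438 for LPS and 2445 rather than 3933 for LPS plus PD against control, where fewer genes were tested. Ratios of FPKM + 1 gave 3.21 and 1.95 for DDX58 to MAVS against control (3.65 and 2.31 without the added 1), and -1.15 and -1.03 for DDX60L to DDX60 (-1.44 and -1.31). With 3 libraries a group, no exact permutation test could go below 0.1.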
